A study of Drosophila melanogaster with 2 samples.

Results

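The strong peaks described here are the 414 lines of the thresholded dm6 peak list of CHES-1-like with a deposited signal of 300 or more. They make up 9% of the 4599 lines and hold 25.9% of the summed signal. The other 4185 lines are called other peaks below. The members were chosen by their signal, so signal, rank and replicate values are given as descriptions with no test, and the tests below concern location, spacing and sequence.

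The peaks come from chromatin immunoprecipitation followed by sequencing (ChIP-seq) of whole Drosophila melanogaster embryos of mixed sex, collected 0 to 24 h after laying. The embryos belong to a transgenic line that stably makes CHES-1-like with GFP at its C-terminus, and chromatin was sonicated to 200 to 800 bp before precipitation. The labels differ on the antibody, with an anti-GFP antibody in the description and CHES-1-like named in the antibody field. There is 1 group with 2 libraries, biological replicates 2 and 3, and no second genotype, treatment or age. The sources used here do not say which promoter drives the fusion or whether the line keeps untagged CHES-1-like, and a whole embryo of these ages mixes all tissues and stages, so a peak cannot be assigned to a cell type. Depth is unknown because the lists hold no read counts, and intervals and p-values over peaks cover counting error only. Neighbouring peaks are not independent, and both replicate lists fed the list that chose the members.

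CHES-1-like belongs to the forkhead family of transcription factors, named after a winged-helix domain that binds DNA. Its closest vertebrate relatives are the checkpoint suppressor forkhead proteins, which act mainly as repressors. In the fly embryo it is known for roles in heart and dorsal mesoderm development, where it acts with jumu, another forkhead gene. Forkhead proteins classically bind A/T-rich sites built on TAAACA, and a second, unrelated site, GACGC, is known for some members. A ChIP-seq peak marks DNA that was cross-linked near the precipitated protein, directly or through other proteins.

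The 6-base word with the smallest p-value between strong and other peaks was CAGTGG. It was near 90 of 414 strong summits (21.7%) and 499 of 4185 other summits (11.9%). A copy on each side, pointing inward, 40 to 110 bp from the summit, was rare, with 10 strong and 22 other peaks. The following windows, which reach 100 bp to each side, show 6 of these strong peaks. They are the strongest of those open to display here that overlap no annotated UTR or coding sequence, a rule made after the pattern had been seen. All are plus strand of dm6, with sequence from RefSeq's release 6 genome, and capitals mark CAGTGG and its reverse complement CCACTG.
NFAT intron, chrX:13640415-13640615, plus strand: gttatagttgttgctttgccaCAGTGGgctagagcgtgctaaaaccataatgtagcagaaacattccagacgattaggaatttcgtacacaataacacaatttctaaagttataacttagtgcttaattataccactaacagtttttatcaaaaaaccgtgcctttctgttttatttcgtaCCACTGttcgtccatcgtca
CHES-1-like intron, chrX:7700313-7700513, plus strand: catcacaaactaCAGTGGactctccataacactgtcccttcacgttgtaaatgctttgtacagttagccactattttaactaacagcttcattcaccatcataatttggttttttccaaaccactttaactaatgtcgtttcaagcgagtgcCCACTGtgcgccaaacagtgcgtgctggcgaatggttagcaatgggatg
CG1635 promoter, chr3R:31588445-31588645, plus strand: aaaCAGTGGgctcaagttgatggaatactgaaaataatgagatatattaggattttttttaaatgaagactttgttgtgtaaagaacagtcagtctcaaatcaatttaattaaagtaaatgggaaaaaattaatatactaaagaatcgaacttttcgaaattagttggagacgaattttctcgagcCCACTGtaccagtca
mrt promoter, chr3R:27281102-27281302, plus strand: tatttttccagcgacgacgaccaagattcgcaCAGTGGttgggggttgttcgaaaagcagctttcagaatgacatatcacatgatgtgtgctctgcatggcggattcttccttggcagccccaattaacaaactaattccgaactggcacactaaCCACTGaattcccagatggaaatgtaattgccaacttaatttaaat
CG32767 intron, chrX:5083677-5083877, plus strand: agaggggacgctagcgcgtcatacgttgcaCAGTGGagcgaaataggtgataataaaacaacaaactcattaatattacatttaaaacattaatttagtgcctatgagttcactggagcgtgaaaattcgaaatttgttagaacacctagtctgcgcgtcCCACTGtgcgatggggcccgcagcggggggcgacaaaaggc
CG32264 intron, chr3L:3785114-3785314, plus strand: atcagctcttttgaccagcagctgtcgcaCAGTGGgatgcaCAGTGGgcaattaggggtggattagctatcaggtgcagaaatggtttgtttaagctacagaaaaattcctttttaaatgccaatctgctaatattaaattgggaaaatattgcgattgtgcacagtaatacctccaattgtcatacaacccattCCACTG
These 6 peaks had signals of 649 at NFAT, 627 at CHES-1-like, 594 at CG1635, 381 at mrt, 356 at CG32767 and 342 at CG32264. In 5 of the 6 the central 81 bp were poorer in G and C than the whole window, as at CG32767 with 28.4% in the centre and 46.3% over the window, while at mrt the centre held 44.4% and the window 43.3%.

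Signal among the strong peaks fell off steeply. It ran from 300.2 to 2442 with a median of 395 and quartiles of 342 and 529, against a range of 84.2 to 299.9 and a median of 123 in other peaks. A signal of 500 or more was reached by 117 strong peaks and 1000 or more by 24. No gap separated the groups at the threshold. Just inside it stood a promoter peak of CG3337 (301.9), a second peak near Atf3 (301.3), promoter peaks of CG8176 (300.4) and Dg, the dystroglycan gene (300.2), and an intron peak nearest to CG18508 (300.2). Just outside stood a promoter peak of goe (299.9), a peak nearest to CycY (299.6), a promoter peak of CG5335 (299.5), an intergenic peak nearest to Inx2 (299.4) and an intron peak of CHES-1-like (299.2). The thresholded list on the dm3 assembly also held 414 peaks of 300 or more, of 4633.

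All 414 strong peaks had a summit within 100 bp in each replicate list. The nearest such summit was taken, not the strongest, so a weaker side summit can stand for a peak. In replicate 2 their rank ran from 1 to 809, with 376 within the first 414, and in replicate 3 from 1 to 4250, with 364 within the first 414. Both held for 328 peaks (79.2%). The peak that ranked lowest in a replicate was a promoter peak shared by Herp and r2d2 (signal 413), which ranked 4250 in replicate 3 and stood within the first 414 in replicate 2, and the next lowest in replicate 3 was a promoter peak of CHES-1-like itself, with rank 1182 there and 238 in replicate 2. The matched signals at the Herp peak were 267 in replicate 2 and 40.5 in replicate 3. At the CHES-1-like peak, of signal 348, they were 217 and 81.7. Whether these low ranks come from a side summit was not tested. The members were chosen by a signal drawn from both libraries, as at Sox14 with 981 there and 564 and 414 in replicates 2 and 3. High ranks in both replicates are therefore largely fixed by that choice, and the thresholding procedure favours them too. The overlap is a description and no measure of agreement between the libraries.

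**Figure D1:**
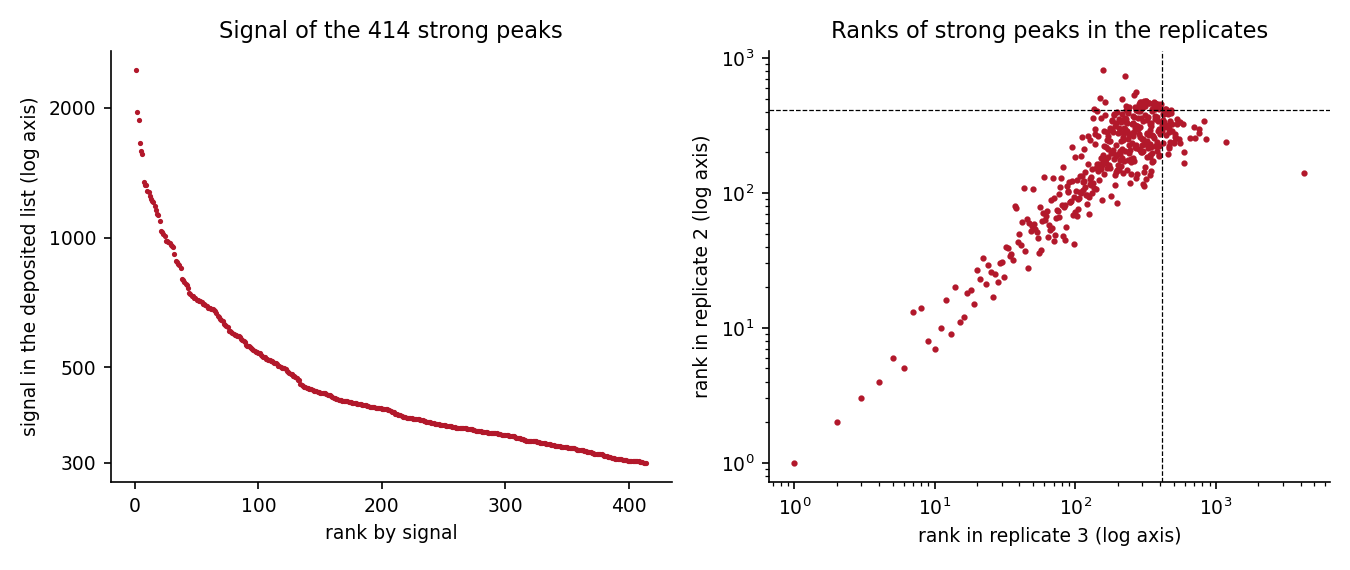
Left, deposited signal (log axis) of the 414 strong peaks against their rank in the thresholded list, from 2442 down to 300.2. Right, rank of each strong peak in replicate 2 against its rank in replicate 3 (log axes), with dashed lines at rank 414; 328 peaks lie below and left of both lines.

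Peak width differed between the groups, which bears on the comparisons below. Only 15 strong peaks (3.62%) had the fixed width of 430 bp that 3795 other peaks (90.7%) had, and the median width was 263 bp in strong and 430 bp in other peaks. The share at 430 bp fell with signal, from 99.4% of the peaks below 100 to 58.7% of those from 200 to 250 and 9.24% of those from 300 to 350. The comparisons were therefore repeated, as an alternative chosen after seeing the data, among the 399 strong and 390 other peaks of other widths. Those 390 other peaks had a median signal of 234, against 400.05 in the 399 strong ones. There, every call of the whole-list comparison on location, spacing and the sequence within 100 bp of the summit ended. A call on GAGAGAG within 200 bp held, and the values are given beside each result. Calls made only under another signal threshold, another start-site window or in a subset of promoters were not repeated by width. Nor were the positions and orientation of CAGTGG and the G-rich words, or the profile of base composition around the summit. With 390 in place of 4185 other peaks, a difference of the same size passes a test less easily. The promoter share was 69.7% against 63.3% there and 69.1% against 62.3% in the whole list. The upstream share of promoter summits was 85.6% against 83.0% there and 85.7% against 69.9% in the whole list. Whether the differences go with width or with signal cannot be told apart in the whole list, since nearly all weak peaks had the fixed width.

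Strong peaks lay at promoters slightly more often than other peaks. Of the 414 summits, 286 (69.1%, 95% interval 64.4 to 73.5) lay within 500 bp of the transcription start site (TSS) of a protein-coding gene, against 2609 of 4185 (62.3%) in other peaks (odds ratio 1.35, Benjamini-Hochberg adjusted p = 0.0456 over 7 classes by Fisher's exact test). Introns held 90 strong summits (21.7%) against 25.6% in other peaks, and intergenic sequence 28 (6.76%) against 9.27% (adjusted exact p = 0.246 for each). The remaining 10 lay in non-coding exons (6), 3' UTRs (2), a 5' UTR (1) and coding sequence (1). The promoter call ended with signal thresholds of 250 and 400, with the 414 best peaks of replicate 2, with a window of 250 bp around the TSS, and among peaks of widths other than 430 bp (69.7% against 63.3%, adjusted exact p = 0.337).

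Where a strong peak lay at a promoter, its summit stood upstream of the start site. This held for 245 of the 286 strong promoter summits (85.7%, 81.1 to 89.5) and for 1824 of the 2609 other promoter summits (69.9%), with an odds ratio of 2.57 (adjusted p = 1.93e-08 over 4 shares, Fisher's exact test). The median position was 110.5 bp upstream in strong peaks, with quartiles 195 and 45.3 bp upstream, and 40 bp upstream in other peaks. Of the strong promoter summits 142 (49.7%) lay 50 to 200 bp upstream, against 849 (32.5%) of the other promoter summits. Within 50 bp of the start site the order turned, with 60 (21%) of the strong and 1060 (40.6%) of the other promoter summits. Promoters with start sites on 1 strand only gave 87.9% against 65.9% (adjusted exact p = 1.39e-09).

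The upstream share did not step up at a signal of 300. It was 58.5% for promoter summits of peaks below 100, 67.4% from 100 to 150, 80.2% from 150 to 200, 83.1% from 200 to 250, 82.8% from 250 to 300, 83.8% from 300 to 350, 88.1% from 350 to 400, 88.4% from 400 to 600 and 81.1% at 600 or more. The median position moved with it, from 17.5 bp upstream below 100 to 138 bp upstream from 400 to 600. Among peaks of widths other than 430 bp the upstream share was 85.6% in strong and 83.0% in other peaks (adjusted exact p = 0.578), and the median positions there were 107.5 and 61 bp upstream. The lowest shares were those of peaks with a signal below 150, of which 99.4% (below 100) and 98.9% (from 100 to 150) had the fixed width.

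**Figure D2:**
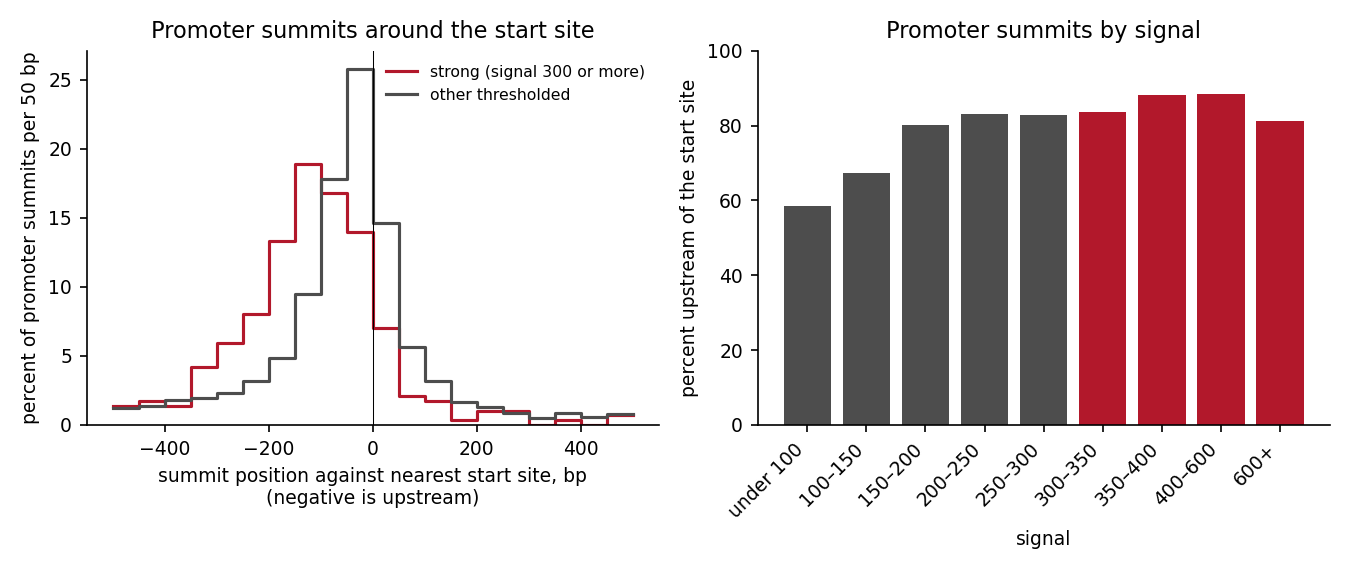
Left, position of promoter summits against the nearest coding start site (percent of each group per 50 bp, negative is upstream) for 286 strong (red) and 2609 other peaks (grey), with medians 110.5 and 40 bp upstream. Right, percent of promoter summits upstream of the start site in 9 bins of signal, red for 300 or more, between 58.5% in the lowest bin and 88.4% at 400 to 600.

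Divergent promoters, where genes start back to back, were frequent in both groups, and their share did not pass the test. Start sites on both strands lay within 500 bp of 113 strong promoter summits (39.5%) and of 36.8% of the other promoter summits (adjusted exact p = 0.406), and start sites of 2 or more genes within 500 bp of 118 (41.3%) and 38.6% (adjusted exact p = 0.406). With a window of 250 bp the share with both strands was 40.3% in strong and 26.4% in other promoter summits (adjusted exact p = 1.86e-05), and with a threshold of 250 it was 43.5% and 36.0% (0.00897). Among intron summits, 74 of 90 strong (82.2%) and 72.9% of the other peaks lay in a first intron (adjusted exact p = 0.123).

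Of the 128 strong peaks away from promoters, 69 lay within 2000 bp of a coding start site and 10 over 10000 bp from it. The remote ones included an intron peak of osa (signal 781, 13939 bp), which encodes a subunit of the Brahma chromatin remodelling complex, and intergenic peaks nearest to CG13323 (1232, 11919 bp), chinmo, a BTB zinc finger gene that sets temporal identity in neurons (446, 12378 bp), CG32986 (376, 16674 bp) and noc (347, 14356 bp). Intron peaks nearest to gpp, the gene of the H3K79 methyltransferase (361, 17258 bp), CG13482 (360, 25289 bp, in an intron of fz), Hr4, a nuclear receptor gene (318, 21984 bp), and CG18508 (300.2, 10614 bp, in an intron of N, the Notch gene) were also among them.

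Strong peaks had another thresholded summit nearby more often than other peaks did, while shares with a strong summit nearby did not pass the test. Another thresholded summit lay within 10000 bp of 340 strong peaks (82.1%) and 74.6% of other peaks (odds ratio 1.57, adjusted p = 0.00210 over 4 shares by Fisher's exact test), and within 1000 bp of 102 (24.6%) and 19.4% (odds ratio 1.36, adjusted exact p = 0.0236). A strong summit other than the peak itself lay within 10000 bp of 18.1% of strong and 15.4% of other peaks (adjusted exact p = 0.207), and within 50000 bp of 42.5% and 41.5% (0.676). The median distance to the next thresholded summit was 3075 bp in strong and 3872 bp in other peaks, and to the next strong summit 68050 and 72029 bp. Among peaks of widths other than 430 bp, with neighbours still sought in the whole list, 81.7% of strong and 78.5% of other peaks had a summit within 10000 bp, and 24.3% and 28.2% within 1000 bp, where the order turned (adjusted exact p = 0.569 for each).

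When strong summits less than 10000 bp apart were joined, they formed 371 runs, of which 339 held 1 summit, 28 held 2 and 4 held 3 or more. The 414 peaks had 384 distinct nearest genes, and 363 of these were nearest to 1 strong peak only. The exceptions with 3 or more were CHES-1-like with 7 of its 16 thresholded peaks, Raf with 4 of 8, and Ptpmeg2 and for with 3 of 4 each.

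The strong peaks at CHES-1-like form the longest run, of 7 summits. Signals were 682, 627, 587, 547, 368, 348 and 336. The 4 strongest ranked 42, 75, 85 and 104 in replicate 2 and 98, 74, 91 and just past 100 in replicate 3, while the 3 weakest ranked 192, 238 and 233 in replicate 2 and 339, 1182 and 554 in replicate 3. The rank of 1182 is subject to the limit of the matching given above. Whether the tagged locus is native or an inserted copy cannot be told apart in these lists. With all thresholded peaks within 50000 bp of the gene left out, no call on location or spacing changed.

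Raf, which encodes the kinase that links Ras to the MAP kinase cascade, carried its 4 strong peaks within its introns, 903 to 8655 bp from the start site. Their signals were 687, 445, 373 and 354. The peaks at Ptpmeg2, a protein tyrosine phosphatase gene, were instead spread over 3 of its alternative promoters, at 208, 192 and 185 bp upstream of a start site, with signals of 456, 365 and 342. At for, the cGMP-dependent protein kinase gene of foraging behaviour, 2 peaks lay in introns (504 and 338) and 1 lay 340 bp upstream of an inner start site (327).

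No chromosome arm and no class of non-coding gene start passed the test. Arm 3R held 92 of them (22.2% against 23.5% of other peaks), 2L 87 (21% against 18.4%), 2R 81 (19.6% against 19.6%), X 78 (18.8% against 17.1%), 3L 75 (18.1% against 21.1%) and 4 only 1 (0.242% against 0.358%), with adjusted exact p-values from 0.626 to 1. Starts of long non-coding RNA genes lay within 500 bp of 14 strong peaks (3.38% against 3.99%), of tRNA genes within 500 bp of 2 and of snRNA or snoRNA genes within 500 bp of 2. No microRNA start did, against 16 in other peaks (0 of 414 allows a share of up to 0.887% by the exact interval). None of these 4 classes passed the test (adjusted exact p = 0.690 for each).

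CAGTGG was present on either strand within 100 bp of 90 strong summits (21.7%, 17.9 to 26), against 499 of 4185 other summits (11.9%, 11 to 12.9). The odds ratio was 2.05, with an adjusted p of 0.000237 by Fisher's exact test over all 2080 words of 6 bases, a word and its reverse complement counted as 1. Of 19252 windows of the same length centred on coding start sites, 9.57% held the word. In all, 14 of the 2080 words (0.673%) were more frequent in strong windows and 7 (0.337%) less frequent at an adjusted p under 0.05.

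Several of the more frequent words share letters. ACAGTG, which overlaps CAGTGG, was in 26.1% of strong and 17.1% of other windows (adjusted exact p = 0.00475). Words with 4 or more G in a row on a strand made up 5 of the 14, led by CAGGGG in 9.18% of strong and 3.58% of other windows (adjusted exact p = 0.00135), with ACCCCC in 9.66% and 4.01% (0.00173) and AGGGGG in 9.90% and 4.59% (0.00619). ATCTAC was in 10.9% of strong and 5.04% of other windows (adjusted exact p = 0.00415). The less frequent words were led by ACATCG in 3.62% of strong and 9.18% of other windows and CGAGCG in 2.66% and 7.77% (adjusted exact p = 0.00962 for each). CGGCAA was in 4.59% and 10.5% (0.00962), AATCGA in 10.6% and 18.0%, and ACCGCC in 1.69% and 5.90% (adjusted exact p = 0.0173 for both), and ACACAC in 9.18% and 15.4% (0.0414).

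The share of windows with CAGTGG was higher in every bin of signal from 300 up than in every bin below it. It lay between 10.7% and 13.2% in the 5 bins of signal below 300, and was 24.4% from 300 to 350, 17.2% from 350 to 400, 17.1% from 400 to 600 and 30.4% at 600 or more. At promoters it was 19.2% in strong and 9.85% in other peaks (adjusted exact p = 0.00256). Over 500 bp from a start site it was 27.3% and 15.4%, a difference as large, but no word passed the test there with 128 strong windows (adjusted exact p = 0.564 for CAGTGG). Between 50 and 200 bp upstream of a start site it was 20.4% and 10.6% (0.570). Among peaks of widths other than 430 bp it was 21.8% and 16.2% (0.900), and no word was called in either direction. Other peaks of the fixed width held the word in 11.5%.

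The word was displaced from the summit and oriented toward it. Its 104 occurrences in strong windows lay at a median of 68.5 bp from the summit, against 46.5 bp for 557 occurrences in other windows, and within 50 bp of the summit the share was 5.56% in strong and 6.59% in other peaks, so that the order turned. Between 40 and 110 bp from strong summits, 79 occurrences read CAGTGG toward the summit and 15 away from it (84% toward), against 263 and 117 at other summits (69.2%). Beyond 150 bp, up to 400 bp, 51.3% and 51.6% pointed toward the summit. In all, 66 strong peaks (15.9%) and 237 other peaks (5.66%) had an inward copy at that distance, and 10 strong and 22 other peaks had one on each side. These positions and distances were chosen after seeing the data and are a description with no test.

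The bases just before the word also had a leading letter each. Next to the 79 inward copies at strong peaks the base 1 before the word was A in 70.9%, the base 2 before was C in 48.1% and the base 3 before was G in 58.2%. At the 263 inward copies of other peaks the same bases led, with 64.3%, 38.0% and 46.8%. Of the G-rich words, CAGGGG was read toward the summit in 29 and away in 5 of its copies at 40 to 110 bp from strong summits (85.3%), and AGGGGG in 30 and 7 (81.1%). At other peaks the shares were 64.7% and 65.5%. Beyond 150 bp, up to 400 bp, 65.1% of CAGGGG and 47.3% of AGGGGG copies at strong peaks read toward the summit. No strong peak had an inward CAGGGG on each side and 2 had an inward AGGGGG on each side. These counts have no test.

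Around this frame the strong peaks had an A/T-rich core. In strong peaks G and C made up 34.8% of the bases just right of the summit and 46.3% between 180 and 200 bp to its left, while in other peaks they made up 40.1% and 41.9% at the same places. These are the lowest and highest bins of strong peaks. Between 180 and 200 bp to the right the shares were 45.2% in strong and 42.3% in other peaks. Within 100 bp of the summit the median G and C content was 37.3% in strong and 38.8% in other peaks, so the groups differed more in shape than in level. ATTTAA, a word of A and T only, was in 42.5% of strong and 33.2% of other windows (adjusted exact p = 0.0253).

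**Figure D3:**
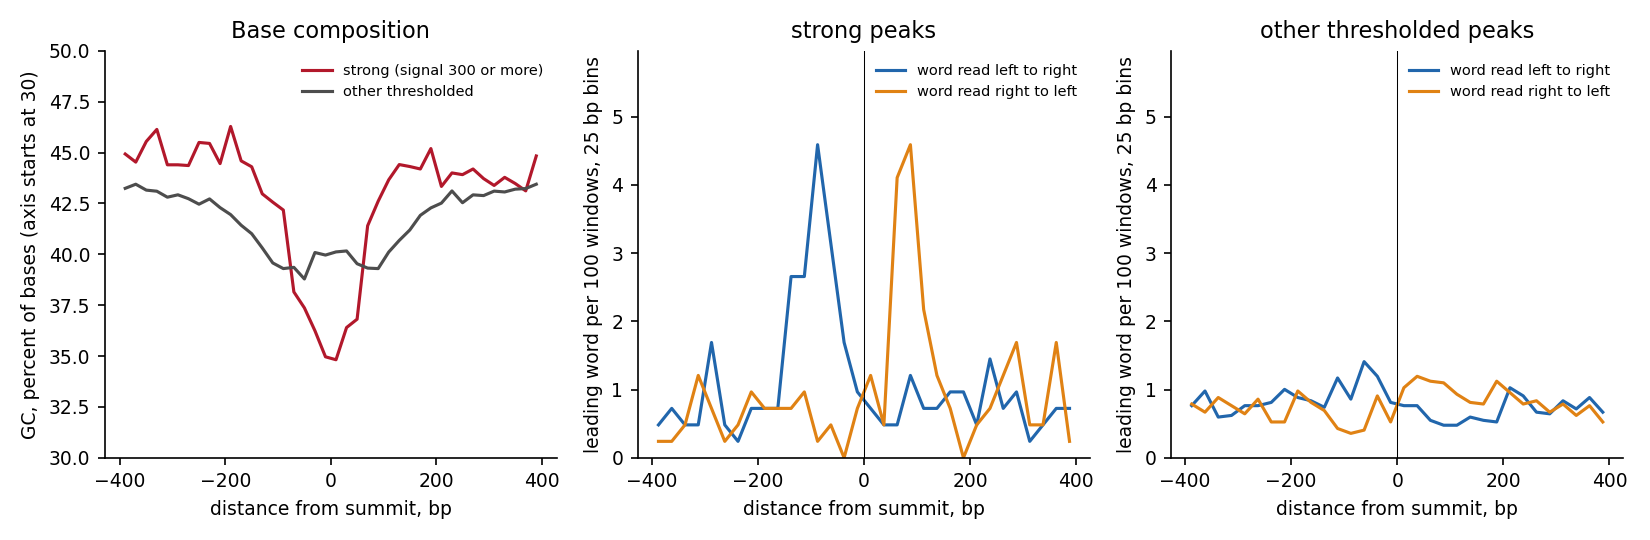
Left, percent of G and C in 20 bp bins from 400 bp left to 400 bp right of the summit, for strong (red) and other peaks (grey); the strong line dips to 34.8% at the summit. Middle and right, occurrences of the leading word per 100 windows in 25 bp bins, by the strand on which it reads, for strong and for other peaks: at strong peaks copies read left to right gather left of the summit and copies read right to left gather right of it.

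Of 19 motifs searched within 100 bp of the summit on both strands, 17 did not pass the test, the forkhead sites among them. The 19 comprise known sites, simple repeats and the reversed letters of the forkhead and GACGC sites. Forkhead sites (ATAAACA or GTAAACA or ACAAACA or GCAAACA) were in 28.5% of strong and 29.5% of other windows, and their letters reversed without complementing, which share the word ACAAACA with them, in 25.4% and 26.1% (adjusted exact p = 0.902 for both). The GACGC site was in 15.2% and 16.2%, and its reversed letters CGCAG in 28.0% and 26.6% (0.902 for both). Of windows at all coding start sites, 23.5% held a forkhead site and 20.6% GACGC. The DNA replication-related element TATCGATA was in 6.04% of strong and 6.83% of other windows, and GAGAGAG, bound by GAGA factor, in 4.59% and 4.54% (0.902 for both). TGACGTCA, the site of CREB and ATF proteins, was in 4 strong (0.966%) and 11 other windows (0.263%) (adjusted exact p = 0.251).

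Both motifs that passed the test were less frequent in strong peaks. The core of Motif 1, GGTCACACT, an element of housekeeping promoters, was in 7 strong windows (1.69%) and 189 other windows (4.52%; adjusted exact p = 0.0437), and the repeat CACACACA in 8 (1.93%) and 225 (5.38%; 0.0254). Both calls ended under most alternatives, among them peaks of widths other than 430 bp, with 1.5% and 3.59% for Motif 1 and 2.01% and 4.36% for the repeat (adjusted exact p = 0.661 for each). The other promoter elements had shares of 6.76% in strong and 8.29% in other windows for Motif 6 (GTATATTT or GTATTTTT) and 16.2% and 18.6% for Motif 7 (CAGCNCTA, CAGCNCTG, CATCNCTA or CATCNCTG). The TATA box, written as TATAAAA or as TATAAAG, was in 15.7% and 13.8%. The initiator, which is TCA followed by G or T, then T, then T or C, was in 41.3% and 41.9%, against 50.4% of windows at coding start sites. The E-box CACGTG was in 3.14% of strong and 3.06% of other windows, and the E-box CAGCTG in 12.1% and 12.7%. AAAAAAAA was in 11.8% and 12.9%, the Zelda site CAGGTAG in 0.966% and 0.884%. GATA sites, AGATAA or else TGATAA, were in 27.5% of strong and 24.9% of other windows. AP-1 sites, read as TGACTCA or with G in the middle, were in 2.66% and 1.96%. For these elements the adjusted exact p-values ran from 0.818 to 0.902.

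Farther from the summit, repeats of GA differed between the groups. GAGAGAG, on either strand, lay within 200 bp of 92 strong summits (22.2%) and 432 other summits (10.3%), with an adjusted p of 6.81e-10 over 19 motifs by Fisher's exact test. Coding start sites held it within 200 bp in 8.22%. Unlike the other sequence calls of the whole list, this one held among peaks of widths other than 430 bp. The shares there were 22.1% in strong and 10.3% in other peaks (adjusted exact p = 0.000143). At promoters the shares were 20.3% in strong and 8.70% in other peaks, and over 500 bp from a start site 26.6% and 13.0%, given without a test. The 200 bp window was 1 of several windows tried, and within 50 bp of the summit the order turned, with 0.483% and 1.86% (adjusted exact p = 0.215).

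The copies stood mostly beside the strong summits. Most strong windows with GAGAGAG had it only in the outer flank (17.6% of all strong peaks, against 5.78% of other peaks). Copies were counted with overlaps in bins of 50 bp. Strong peaks had 0.242 per 100 windows in the bin just left of the summit and 1.45 in the bin just right of it. Between 150 and 100 bp to the left they had 10.6, and between 150 and 200 bp to the right 14.98. The 92 strong peaks held 215 copies, so a long run of GA counts more than once. At other peaks the bins within 200 bp ran from 2.27 to 4.09. By signal, the share within 200 bp lay between 9.73% and 10.8% in the 5 bins below 300, and was 26.9% from 300 to 350, 18.3% from 350 to 400, 21.1% from 400 to 600 and 21.5% at 600 or more. The flanks of strong peaks were also richer in G and C than those of other peaks, as given above, and the part of base composition in this difference was not tested. These positions were examined after the difference had been seen and are a description.

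The strongest peaks open to display with a copy in the flank, outside annotated UTRs and coding sequence, were an intron peak of Lk6, a protein kinase gene (signal 1590), and a promoter peak of larp, of an RNA-binding protein (1280). The windows below hold 300 bp of the plus strand of dm6, from 100 bp left of the summit on, with GAGAGAG in capitals, in RefSeq's release 6 sequence.
Lk6 intron, chr3R:11760951-11761250, plus strand: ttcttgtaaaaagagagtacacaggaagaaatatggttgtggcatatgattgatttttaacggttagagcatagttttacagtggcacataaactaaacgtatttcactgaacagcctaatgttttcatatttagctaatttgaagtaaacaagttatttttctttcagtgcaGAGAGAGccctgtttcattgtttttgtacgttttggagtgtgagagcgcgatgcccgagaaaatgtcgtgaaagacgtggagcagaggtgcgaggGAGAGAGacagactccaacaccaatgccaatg
larp promoter, chr3R:28326501-28326800, plus strand: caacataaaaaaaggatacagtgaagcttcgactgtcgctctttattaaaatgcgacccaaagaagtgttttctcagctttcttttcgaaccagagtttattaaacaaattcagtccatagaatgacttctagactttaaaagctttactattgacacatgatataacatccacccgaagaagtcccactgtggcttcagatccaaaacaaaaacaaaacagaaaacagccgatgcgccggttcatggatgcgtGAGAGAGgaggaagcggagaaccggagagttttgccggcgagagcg
At Lk6 the copies were centred 76 and 171 bp right of the summit, and at larp 157 bp. Within 200 bp the E-box CAGCTG was also more frequent, in 29.95% of strong and 22.5% of other peaks (adjusted exact p = 0.00727), but that call ended among peaks of widths other than 430 bp (29.6% and 21.3%, 0.0561). Conversely CGCAG, the reversed letters of GACGC, passed there within 200 bp with 54.1% and 43.1% (0.0207) and not in the whole list. The setting in which the GAGAGAG call held thus also called this reversed word.

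**Figure D4:**
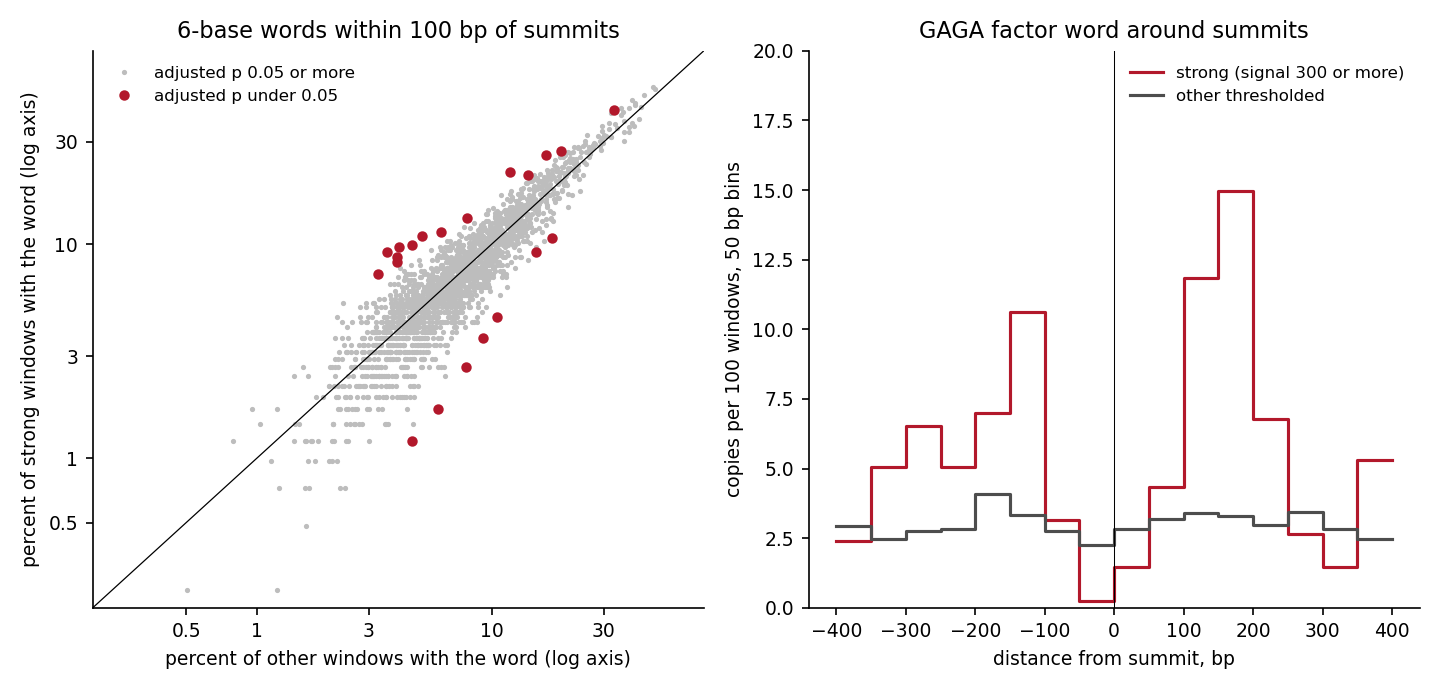
Left, each point is 1 of 2080 words of 6 bases, with the percent of 414 strong windows that hold it on the vertical and the percent of 4185 other windows on the horizontal axis (log axes, windows reaching 100 bp to each side, line of equal shares); the 14 red points above the line and 7 below it have an adjusted p under 0.05. Right, copies of GAGAGAG per 100 windows in 50 bp bins around strong (red) and other summits (grey). The strong line is at 0.242 just left and 1.45 just right of the summit and reaches 14.98 on its right flank.

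Beyond the 20 strongest, the peaks ranked 21 to 50 by signal lay at genes of varied function, 19 of the 30 at promoters. Peaks at genes of transcription and chromatin are given first. Sox14, which encodes an HMG-box factor, had a summit 271 bp upstream of its start site (signal 981, rank 25 in replicate 2 and 27 in replicate 3). Atf3, a bZIP factor gene, had 955 upstream of its start site (ranks 31 and 30). Adf1, a MADF-domain factor gene, had 949 in an intron (33 and 22), and osa 781 in an intron (36 and 55). HmgZ, for a chromatin protein with an HMG box, had 763 at 530 bp upstream of a start site, in an intron of HmgZ and HmgD (50 and 40). A peak 3181 bp upstream of tara, which interacts genetically with trithorax group genes, had 917 (32 and 36). The ranks in the replicates differed by at most 19 places at these 6 genes.

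Peaks at kinase genes and at genes of protein synthesis and of membranes follow. The casein kinase gene gish had 1008 at 171 bp upstream (ranks 22 and 28), and Tlk, for a chromatin-assembly kinase, 882 in an intron (34 and 34). A divergent promoter shared by CenG1A, for an ArfGAP, and mRpS23, for a mitochondrial ribosomal protein, had 1035 (21 and 23). eIF6, whose product keeps ribosomal subunits apart, had 972 at 102 bp upstream (29 and 24). Tcs5, of tRNA modification, and CHMP2B, of the ESCRT-III membrane scission complex, shared a promoter peak of 977 (24 and 31). Rtnl1, for a reticulon that shapes the endoplasmic reticulum, had 869 at 256 bp upstream (35 and 35). TRAM, of protein translocation, had 726 at 77 bp upstream (54 and 52). Msp300, for a nesprin that links nuclei to actin, had 734 at 343 bp upstream (57 and 49). At gish, Rtnl1 and Msp300 the start site was an inner one, and the summit lay in an intron of another transcript of the gene.

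Promoter peaks were also at GstE13, a glutathione S-transferase gene (1033), the transporter gene MFS10 (959), CG9147 with Fbw5 (877), CG8360 with CG8372 (866), Adk3, for an adenylate kinase (850), CG8320 with the peroxisome gene Pex11ab (803), CG5098 with CG5757 (798), CG7601 with CIA30 (732), tank with CG12194 (725) and Mnat9 with CG1792 (716). The remaining peaks of these ranks lay over 500 bp from a coding start site. They were nearest to hll (1020), CG4004 (982), CG17896 (790), CG3726 (778), eEF1gamma (742, 5715 bp away) and the cyclin gene CycB (740, 3332 bp away). The peak nearest to CG17896 lay 502 bp from the start site, just outside the window.

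In all, 410 of 13968 protein-coding genes (2.94%) had a strong summit within 500 bp of a start site, which is 11.3% of the 3624 genes with any thresholded summit there. Genes are counted, so a peak at a divergent promoter counts for each gene. The members were chosen by signal and 18 lists were set beside these shares, with counts only and no test.

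Cytosolic ribosomal protein genes had the highest share of all list genes among the 18 lists, with 17 of 92 (18.5%). Of their 69 bound members 24.6% had a strong summit, a share exceeded in the forkhead family (2 of 4) and the heart and dorsal mesoderm genes (1 of 3). RpL7 had a summit 40 bp downstream of its start site with signal 709 (rank 64 in replicate 2 and 45 in replicate 3), RpS27 702 at 1 bp upstream (77 and 38), RpL14 589 at 58 bp upstream (91 and 71) and RpL23A 554, also upstream (132 and 60). The other 13 had signals from 315 to 436. These summits lay close to the start site, within 100 bp in 14 of the 17. Of the 17 peaks, 16 ranked better in replicate 3 than in replicate 2, with RpL11 (251 and 299) the exception, and the median rank was 251 in replicate 2 and 203 in replicate 3. Over all strong peaks 197 of 414 (47.6%) ranked better in replicate 3, and 16 of 17 was noticed after seeing the data.

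Mitochondrial ribosomal protein genes had 7 of 73 (9.59%), or 17.9% of 39 bound members. Beside mRpL41 (1346) and mRpS10 (1212), they were mRpS23 (1035), mRpL23 (640), mRpL53 (310), mRpL47 (300.4) and mRpL34 (300.2). Of these 7 peaks, 6 also lay within 500 bp of a start site of another gene, and 2 ranked better in replicate 3. Translation factors had 3 of 54 (5.56%), with eIF6, eIF3h (420) and a promoter peak of eEF1gamma (374). RNA-binding regulators had larp (1280) and elav, for a neuronal RNA-binding protein (382), as 2 of 29.

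Signalling genes were represented by kinases and inhibitors. Protein kinases had 5 of 68 (7.35%), or 11.4% of 44 bound members, close to the 11.3% of all bound genes. They were gish, sgg, the GSK3 kinase of Wnt signalling (497), Doa (364), hpo, the Hippo kinase (328), and for (327). The list is a partial one, so these shares hold for the listed genes only. Kinase genes outside it also had strong promoter summits, such as Mkk4 (654), Nuak (370) and SRPK (325). Feedback inhibitors had 4 of 29 (13.8%), with Sesn, a TOR inhibitor (688), cbt, a zinc finger factor (629), cact, the IκB of the Dorsal pathway (400.1), and bun (308). All 4 summits lay 198 to 418 bp upstream of a start site. The ranks of cact were 173 in replicate 2 and 263 in replicate 3, those of bun 322 and 530, those of Sesn 48 and 82 and those of cbt 73 and 63.

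Lists of chromatin and developmental regulators were short, so their shares rest on 1 to 3 genes each. Polycomb and trithorax genes had 3 of 28 (10.7%), with ph-p (1246), Trl, which encodes GAGA factor (361), and Jarid2 (352). Insulator and promoter-binding proteins had Chro (1185) and again Trl, 2 of 25. The forkhead family had CHES-1-like (682) and fkh, the salivary gland and gut factor that named the family (379), 2 of 17, and both of the other bound members were below the threshold. Of 23 heart and dorsal mesoderm genes, of which 3 were bound, CHES-1-like alone had a strong summit. Eip75B, a nuclear receptor gene of the ecdysone response (405), was the only 1 of its 17.

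Among lists of general cell machinery, cell cycle genes had Dp, the E2F partner (393), and dup, the replication licensing factor Cdt1 (325), 2 of 45. Actin regulators had Msp300 and Arp3 (487), 2 of 42. Nuclear pore genes had Nup37, at the promoter it shares with RpS27 (702), and Nup98-96 (353), 2 of 26. Heat shock genes and chaperones had Hsp83 (404), 1 of 37. None of 48 proteasome, 40 ubiquitin conjugation and 28 Rab GTPase genes had a strong summit, while 20, 27 and 10 of them had a thresholded summit below 300. The ubiquitin list is partial. Ubiquitin ligase genes outside it, such as POSH (512) and Ube4B (316), had strong promoter summits.

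**Figure D5:**
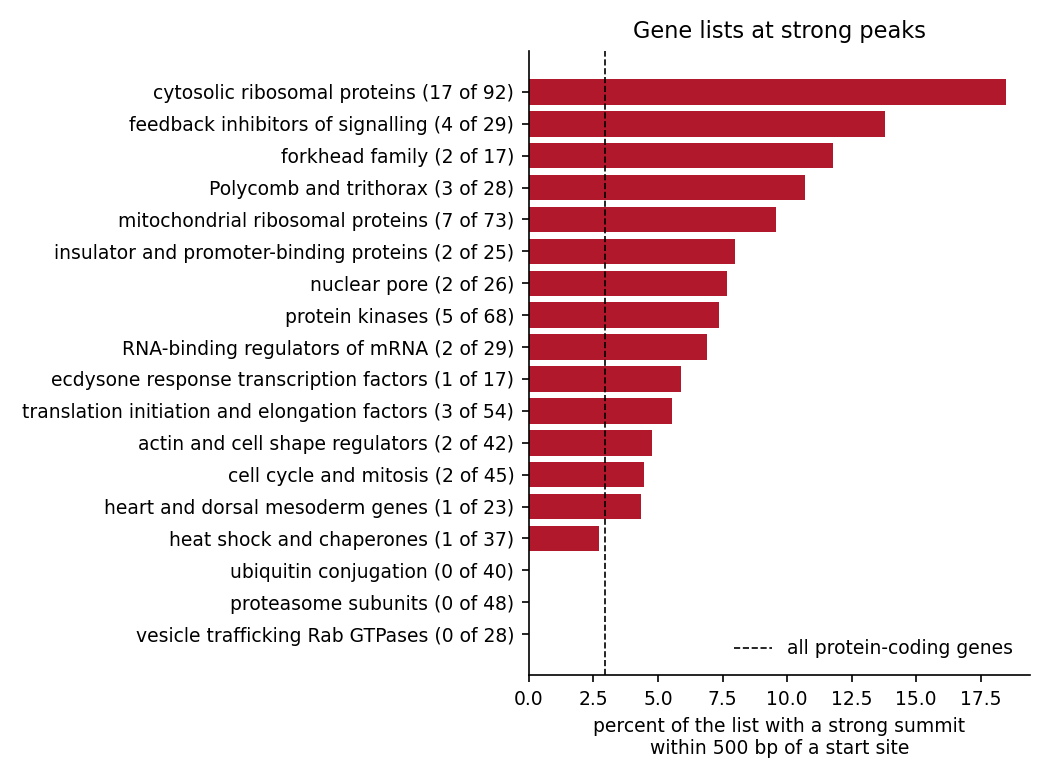
Percent of each list's genes with a strong summit within 500 bp of a coding start site, with the counts after each name; the dashed line marks 2.94%, the share of all 13968 protein-coding genes. Cytosolic ribosomal proteins stand at 18.5%, and 3 lists have no member. Shares of bound members are not drawn. The kinase and ubiquitin conjugation lists are partial.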

How the data were processed

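Peak lists of 2 ChIP-seq libraries were used. Per the deposited file manifests, replicate lists were made from each library and a control, a pooled list from both libraries with that control, and from these 3 lists the thresholded one, by irreproducible discovery rate (IDR). Lists exist on dm6 and dm3, per the same manifests. The sources used here do not give the caller, its version or the IDR limit. The deposited signal is the authors' value per peak, on the scale of its own list; the deposited −log10 q-value was read but not tested. The control is not analysed here.

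Summits were annotated on dm6 with Ensembl release 115 and the release 6 genome, the promoter (500 bp) taking precedence over exon parts, then introns, then intergenic sequence. Strong and other peaks were compared with two-sided Fisher's exact tests, Benjamini-Hochberg adjusted within each family at 0.05, with 95% Clopper-Pearson intervals. Sequence windows reached 100 bp to each side. Replicate peaks were matched by the nearest summit within 100 bp. Named genes are those nearest to peaks ranked 21 to 50 and those nearest to 3 or more strong peaks. Up to 4 members per list and the genes at the threshold are also named. Others, such as the remote peaks and all strong members of the ribosomal and kinase lists, were chosen after their values were seen. Members, lists, motifs and tests were chosen with earlier results of these data known. Outdated symbols in the lists were updated after the files were opened. Alternatives varied the threshold, replicates, windows, start-site distance and neighbours; those on peak width, strand and position upstream were added after seeing the data. The code was tested on simulated data. Python 3.11.15, scipy 1.17.1 and statsmodels 0.14.6 were used. One remote peak is not reported here.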

Additional observations from a re-analysis of the deposited data

How the results depend on the processing

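Values are differences between strong and other peaks in percentage points, unless called counts. Of 721 alternative values, 571 kept their direction and side of the threshold or stayed within 1.5 times. The upstream share kept its call in every alternative but peak width (2.62 for widths other than 430 bp). There, the promoter share was 6.34, a summit within 10000 bp 3.24, a summit within 1000 bp −3.89 (reversed), Motif 1 −2.09 and the CA repeat −2.35, all past no threshold, and the counts of words more and less frequent were 0 and 0. The promoter share lost its call at thresholds of 250 (3.65) and 400 (6.13) and a window of 250 bp (2.82), and lay between 2.96 and 7.46 with each replicate left out. Start sites on both strands gained a call at a threshold of 250 (7.55) and a window of 250 bp (13.9). A summit within 1000 bp lost it at 400 (6.16). Motif 1 lost it at 400 (−3.42), without the 20 strongest (−2.74), with 1 summit per run (−2.90), with windows of 50 bp (−1.59) and 200 bp (−2.46) on each side and 50 to 200 bp upstream (−3.90), reversed away from start sites (0.65), and lay between −3.36 and −2.62 with each replicate left out. The CA repeat lost it at 400 (−3.23), with 1 summit per run (−2.82), windows of 50 bp (−2.05) and 200 bp (−1.90), promoters only (−3.00), away from start sites (−4.06) and 50 to 200 bp upstream (−0.0075), and lay between −3.68 and −3.01 with each replicate left out. Words more frequent numbered 8 without the 20 strongest, 9 within 200 bp, 0 away from start sites and 0 at 50 to 200 bp upstream (142 against 849 windows). Words less frequent numbered 4 at 250, 2 at 400, 4 within 50 bp, 0 within 200 bp, 15 at promoters, 0 away from start sites and 1 at 50 to 200 bp upstream, and 4 to 18 with each replicate left out. Within 50 bp ACAGTG (−2.07) and CAGTGG (−1.04) reversed, within 200 bp the E-box CAGCTG did (7.49, adjusted exact p = 0.00727), and away from start sites ACATCG did (0.71). Within 200 bp and at widths other than 430 bp together, added after seeing the data, Motif 1 was −1.36 and the CA repeat −1.26, past no threshold, words numbered 0 and 0, and ACACAC (3.13) and CGAGCG (0.99) reversed. The causes were not tested; fewer windows remained in the subsets. Genes with a strong summit numbered 349 within 250 bp and 473 within 1000 bp. No paired analysis was possible because there is 1 group. Depth is unknown, so its effect on the 414 members could not be assessed.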
